A study of Mus musculus with 8 samples.

Results

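The genes described here are Tac1, which encodes the precursor of the neuropeptide substance P, and genes of another precursor, neuropeptide receptors and a peptidase. The list held 9 genes: the precursor genes Tac1 and Calca, the receptor genes Tacr1, Tacr2, Tacr3, Calcrl and Cckar, the receptor partner Ramp1 and the peptidase gene Mme. Of these, 8 had at least 1 probe set that the platform annotation gives to that gene alone, with 16 probe sets among them, of 18193 genes and 45037 probe sets in all. Calca, the precursor of calcitonin gene-related peptide (CGRP), had no such probe set listed and was not analysed here. A probe set is a group of short oligonucleotides on the array that together read 1 transcript. Where a gene had several, its main value was taken from the brightest by the mean of all 8 arrays. The list was put forward with the genotype difference of these same arrays known, Tac1 for its low values in embryos without the receptor, so the members' own differences are given as a description, with no p-value, and counts of members past a threshold support nothing.

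Transcript levels were measured on Affymetrix Mouse Genome 430 2.0 arrays in embryonic mouse back skin on day 18.5 of gestation, shortly before birth. The 4 GR-null arrays came from embryos with the genotype GR-/-, which lack the glucocorticoid receptor, the steroid-activated transcription factor encoded by Nr3c1. The 4 wild-type arrays came from GR+/+ littermates, and both groups had the strain B6D2/F1. The numbers 5, 17, 25 and 26 for GR-null skin and 4, 6, 28 and 29 for wild-type skin are those of the labels. The labels give no litter and do not say that each array was a separate embryo, so p-values measure the spread between these samples. They also do not describe the GR allele, and the loss of the receptor is given for the embryo as a whole, not for a cell type of the skin.

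Substance P and CGRP are released from the endings of sensory nerves in the skin, where they widen vessels, act on mast cells and keratinocytes and carry itch and pain signals. Substance P acts mainly through the neurokinin receptor encoded by Tacr1, and the related tachykinins neurokinin A and neurokinin B act mainly through those encoded by Tacr2 and Tacr3. CGRP is read by a receptor made of the protein of Calcrl with that of Ramp1. The membrane peptidase neprilysin, encoded by Mme, cleaves substance P outside the cell. Cckar encodes a receptor for cholecystokinin, a peptide of gut and brain. Neuropeptide precursors can be transcribed by cells other than neurons, and the mRNA in a nerve ending is a small part of that in the cell body, which for dorsal skin lies in ganglia beside the spinal cord.

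The array medians lay between 6.46 and 6.52 log2. Nr3c1 was lower without overlap in GR-null skin at 3 of its 6 probe sets, with log2 differences of -0.84, -1.86 and -2.70, and the other 3 overlapped. The place of the probe sets relative to the altered stretch of the allele is not known here, so a probe set outside it checks nothing. GR-null 17 stood apart from the other GR-null arrays on the first principal component, with a score of -7.96 against scores of up to 61.3, all above 0, in GR-null 5, 25 and 26 and -42.3 to -13.6 in wild-type arrays. Each genotype held 1 array with a low level of Y-linked transcripts. Lists of keratinocyte and dermal fibroblast genes had array means of at least 12.54 and 13.15 log2, far above the array medians, as the tissue label has it.

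Tac1 was lower in GR-null skin, by about 9-fold, with no overlap between the genotypes. It read 7.00, 6.05, 7.65 and 6.30 log2 in GR-null 5, 17, 25 and 26. In wild-type 4, 6, 28 and 29 it read 9.21, 8.95, 10.30 and 11.45. The groups were separated by more than a full log2 unit, with GR-null 25 the highest of its group and wild-type 6 the lowest of its own. The mean was 6.75 ± 0.72 in GR-null and 9.98 ± 1.14 in wild-type arrays (SD, n = 4 each), a log2 difference of -3.23 ± 0.55 (SE of the limma fit across all probe sets), or 9.38-fold. Only 5 of the 18193 genes had a more negative difference. The spread among wild-type arrays was wide, with wild-type 28 and 29 above wild-type 4 and 6, and 31 genes had a larger wild-type SD than Tac1. Fewer cells that make Tac1 and less Tac1 RNA per cell cannot be told apart in whole pieces of skin.

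The second Tac1 probe set did not show this. It read 4.52, 4.50, 4.41 and 4.58 log2 in GR-null 5, 17, 25 and 26, and 4.61, 4.46, 4.63 and 4.55 in wild-type 4, 6, 28 and 29. The groups overlapped, with a log2 difference of -0.06 ± 0.07 and a 95% interval of -0.22 to 0.11. This probe set was dim on every array, at percentile 20.8 of the mean values of all probe sets, while the brighter one stood at percentile 74.7. Differences near the background are compressed by the authors' normalization, and which Tac1 transcripts each probe set reads is not known here. With the mean of the probe sets in place of the brighter one, the Tac1 difference was -1.64.

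**Figure D1:**
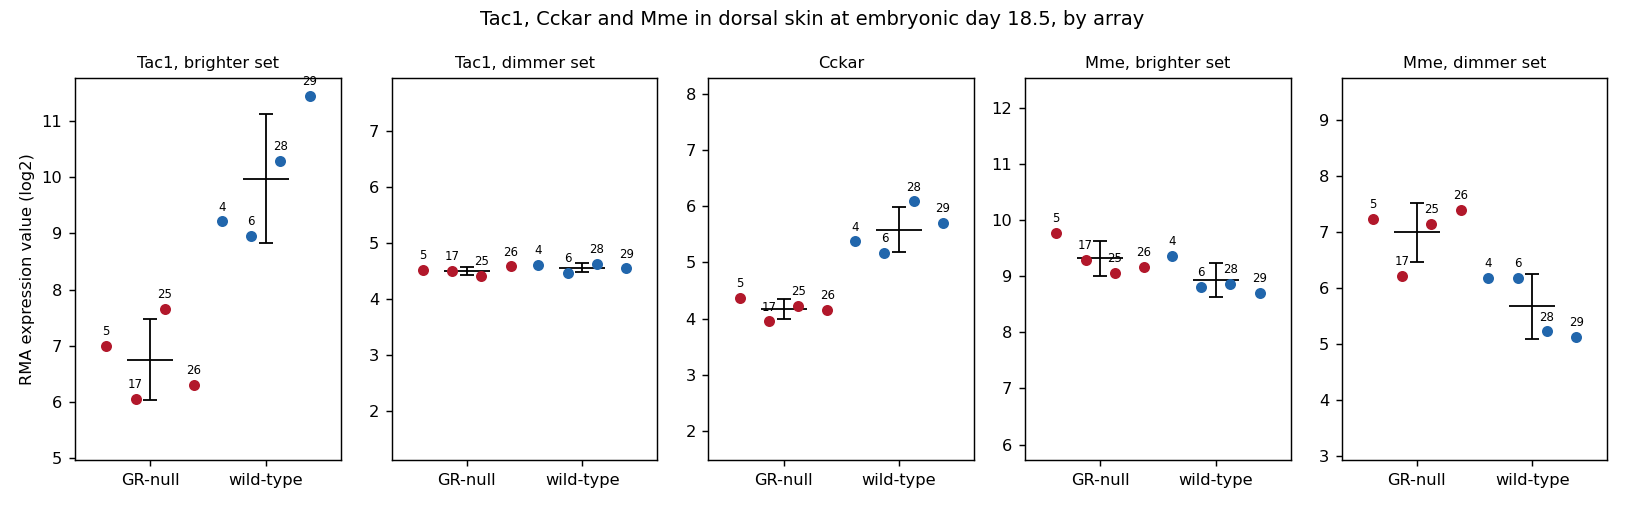
RMA expression values (log2, y axis) of Tac1, Cckar and Mme in each of 4 GR-null and 4 wild-type arrays, numbered as in the labels, with the mean (bar) and SD (whiskers). All panels span the same range in log2 units; the groups are apart for the brighter Tac1 probe set, for Cckar and narrowly for the dimmer Mme probe set.

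The sequence just before the RefSeq start of Tac1 is shown beside that of Chga, a dense-core vesicle gene outside the list that was also lower in GR-null skin and was picked for display after its values were seen. Both are the 250 bases before the start, 5′ to 3′, from RefSeq on build GRCm38.p6: chr6:7554811-7555060 on the plus strand for Tac1 and chr12:102554691-102554940 on the plus strand for Chga. Capitals mark TGACG or its reverse complement CGTCA, the half-site of the cAMP response element, which the CREB family of transcription factors can bind.
Tac1: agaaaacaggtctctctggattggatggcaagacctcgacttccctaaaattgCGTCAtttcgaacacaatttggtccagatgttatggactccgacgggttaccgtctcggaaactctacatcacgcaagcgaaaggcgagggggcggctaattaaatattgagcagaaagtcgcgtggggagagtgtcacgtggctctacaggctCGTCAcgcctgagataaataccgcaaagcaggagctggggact
Chga: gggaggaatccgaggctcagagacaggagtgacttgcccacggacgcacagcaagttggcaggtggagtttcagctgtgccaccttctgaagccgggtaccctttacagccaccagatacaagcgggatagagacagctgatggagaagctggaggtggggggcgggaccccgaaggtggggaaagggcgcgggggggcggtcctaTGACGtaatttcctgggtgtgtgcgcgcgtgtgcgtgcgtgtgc
The Tac1 stretch held 2 matches, whose first bases lie at positions -197 and -43 counted from the start, and the Chga stretch held 1, at position -44. Over windows of 300 bases (250 before and 50 after the start), 20.8% of all 32851 RefSeq windows held this half-site on either strand. The half-site of the glucocorticoid receptor element, AGAACA or its reverse complement TGTTCT, was in 19.0% of all windows, and the full palindrome, in which AGAACA is followed after 3 free bases by TGTTCT, in 3 windows. Promoter entries were found for 8 of the 9 listed genes, all but Cckar, with 10 windows. Of these, 5 held the cAMP half-site, those of Tac1, Calca, Tacr1, Tacr3 and Ramp1. The glucocorticoid half-site was in 1, at the first base of Calcrl, and the palindrome was in 0. The window of Mrgprb1, a receptor gene outside the list that was also lower and is described below, held 0 matches to each of these strings. A match is a string of letters and not a site in use, and its absence from these windows says nothing of the receptor's binding elsewhere.

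The 3 tachykinin receptor genes differed little between the genotypes at their main probe sets. Tacr1, the substance P receptor, read 5.59, 5.24, 5.52 and 5.75 log2 in GR-null 5, 17, 25 and 26. In wild-type 4, 6, 28 and 29 it read 5.56, 5.59, 5.46 and 5.66. The groups overlapped fully, and the lowest and highest values were both from GR-null skin. The Tacr1 difference was -0.04 ± 0.11 log2 (95% interval -0.30 to 0.21).

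Tacr2, the neurokinin A receptor, read 6.36, 6.35, 6.48 and 6.46 log2 in GR-null 5, 17, 25 and 26, against 6.41, 6.60, 6.41 and 6.45 in wild-type 4, 6, 28 and 29. Its groups overlapped too, with a difference of -0.05 ± 0.08 (-0.23 to 0.12). Tacr3, the neurokinin B receptor, had 3 probe sets. At the brightest it read 5.59, 5.60, 5.64 and 5.61 in GR-null 5, 17, 25 and 26 and 5.52, 5.41, 5.59 and 5.66 in wild-type 4, 6, 28 and 29, a difference of 0.06 ± 0.08 (-0.11 to 0.23). The other Tacr3 probe sets, at percentiles 19.4 and 12.6 of brightness, had differences of -0.28 ± 0.10 (-0.50 to -0.05) and -0.06 ± 0.09 (-0.26 to 0.15). The interval of the brighter of these was negative at both ends, though the groups overlapped at both probe sets. All 5 tachykinin receptor probe sets lay below the median brightness of the array, and small changes of such dim probe sets may be understated.

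**Figure D2:**
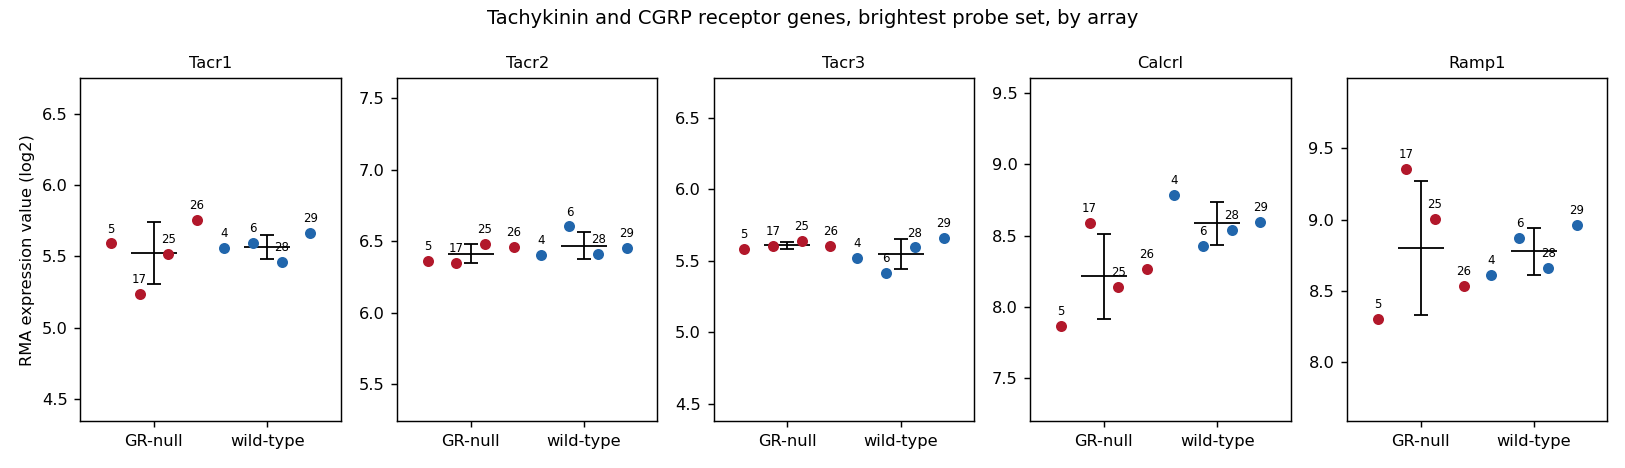
RMA expression values (log2, y axis) of the tachykinin receptor genes Tacr1, Tacr2 and Tacr3 and the CGRP receptor genes Calcrl and Ramp1 at the brightest probe set, by array, with the mean (bar) and SD (whiskers). GR-null and wild-type values overlap in all 5 panels, and GR-null 17 has the highest GR-null value for Calcrl and Ramp1.

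The CGRP receptor genes also overlapped between the groups. Calcrl, the receptor chain, read 7.87, 8.59, 8.14 and 8.27 log2 in GR-null 5, 17, 25 and 26. In wild-type 4, 6, 28 and 29 it read 8.79, 8.43, 8.54 and 8.60. GR-null 17 lay inside the wild-type range and the other GR-null arrays lay below it. The difference was -0.37 ± 0.15 (95% interval -0.71 to -0.04), and -0.50 without GR-null 17. With the mean of a skeletal muscle gene list as a covariate it was 0.02. That list mean was lower in GR-null 5, 25 and 26 than in every wild-type array. A fit with it cannot tell genotype and muscle content apart, here or below. The other Calcrl probe sets, at percentiles 23.8 and 2.83, had differences of 0.15 ± 0.14 and -0.08 ± 0.09.

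Ramp1, which carries the receptor chain to the cell surface and makes it a CGRP receptor, read 8.30, 9.35, 9.01 and 8.54 log2 in GR-null 5, 17, 25 and 26. In wild-type 4, 6, 28 and 29 it read 8.61, 8.87, 8.66 and 8.96. GR-null arrays held both the lowest and the highest values, with an SD of 0.47 against 0.17 in wild-type arrays. The Ramp1 difference was 0.02 ± 0.21 (95% interval -0.46 to 0.50), and 0.72 with the muscle covariate. The other Ramp1 probe sets had differences of -0.10 ± 0.09 and -0.13 ± 0.16. Blood endothelial genes, which mark a main site of CGRP receptors, had array means of 8.39 to 8.45 in GR-null and 8.28 to 8.76 in wild-type skin, with 0 of 10 past the threshold by limma and 4 lower and 0 higher at an unadjusted p below 0.05. The member with the smallest p was the endothelial receptor gene Robo4, at -0.34 ± 0.09 (adjusted p = 0.0749 by limma).

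Cckar was the other member whose values were apart at its main probe set. It read 4.37, 3.95, 4.23 and 4.15 log2 in GR-null 5, 17, 25 and 26. In wild-type 4, 6, 28 and 29 it read 5.38, 5.18, 6.09 and 5.71. Every GR-null value was below every wild-type value, and wild-type 28 and 29 were again above wild-type 4 and 6. The mean was 4.17 ± 0.17 in GR-null and 5.59 ± 0.40 in wild-type arrays (SD, n = 4 each), a difference of -1.41 ± 0.19 (SE), or 2.66-fold. This probe set, the single one of Cckar, was dim, at percentile 27.0, so the fold may be compressed, which was not tested. Over all genes 50 had a more negative difference.

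Mme differed by probe set. At the brighter one it read 9.77, 9.29, 9.07 and 9.17 log2 in GR-null 5, 17, 25 and 26, and 9.37, 8.81, 8.86 and 8.70 in wild-type 4, 6, 28 and 29. The groups overlapped there, with a difference of 0.39 ± 0.18 (95% interval -0.03 to 0.81). It was 0.24 without GR-null 5, 0.11 with the muscle covariate and 0.85 with the mean of both probe sets.

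At the dimmer one Mme read 7.23, 6.22, 7.14 and 7.39 in GR-null 5, 17, 25 and 26, and 6.18, 6.18, 5.23 and 5.13 in wild-type 4, 6, 28 and 29. All GR-null values were above all wild-type values there, GR-null 17 by a narrow margin. The difference was 1.31 ± 0.32, or 2.49-fold, and 0.64 with the muscle covariate. Wild-type 28 and 29, the arrays with the most Tac1 and Cckar signal, had the least at this probe set.

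Of the 8 measured genes, 2 were past the threshold of adjusted p = 0.05 in the fit across all genes, Tac1 and Cckar, both lower, and 6 were not. Across all genes 2.96% were past it, 1.56% lower and 1.40% higher. At the probe set level 2 of the 16 were past the threshold, against 3.85% of all probe sets. The groups did not overlap at 3 of the 16 probe sets, 2 lower and 1 higher, against 12.6% of all probe sets, and at 2 of the 8 main probe sets, against 13.0% of all genes. The list was chosen on this contrast, and nothing is read from these shares. The median difference was -0.05 log2 over the 8 genes and -0.0045 over all genes. Leaving out GR-null 5, 25 or 26 or wild-type 28 left Cckar alone past the threshold, with Tac1 differences of -3.31, -3.53, -3.08 and -3.12. With the muscle covariate neither was past it, at -3.69 for Tac1 and -1.74 for Cckar. Both differences grew in that fit, which cannot tell genotype and muscle content apart.

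**Figure D3:**
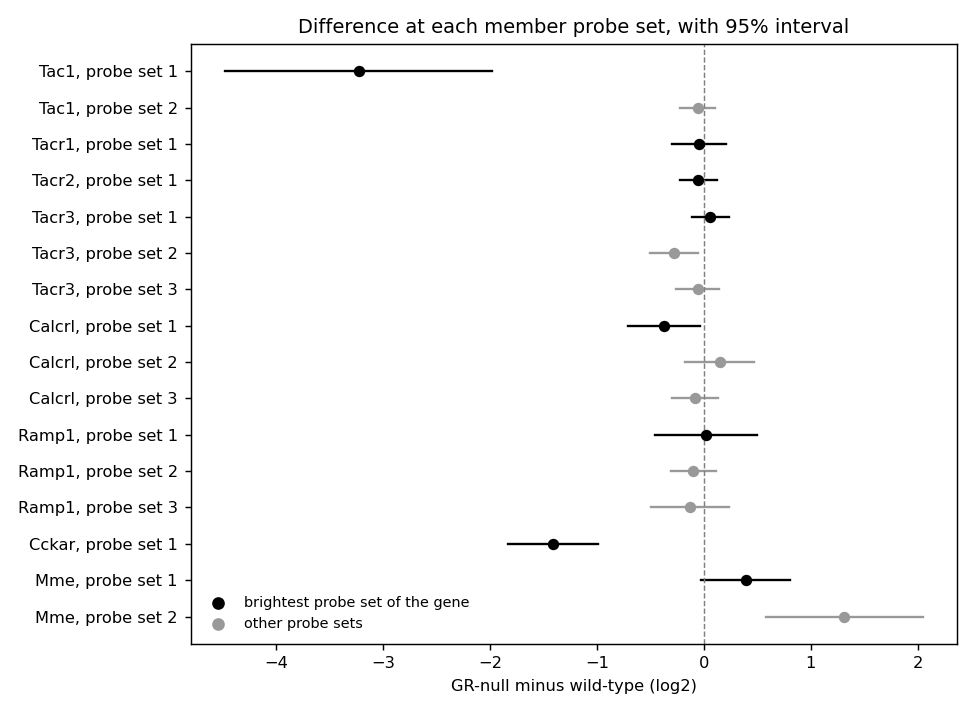
Difference between the group means, GR-null minus wild-type (log2, x axis), at each of the 16 probe sets with its 95% interval from the limma fit; black marks the brightest probe set of a gene, grey the others, numbered by brightness. Tac1 probe set 1 and Cckar lie well to the left of 0, Mme probe set 2 to the right, and the tachykinin and CGRP receptor probe sets nearer 0.

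The nearest relatives of the listed genes, named here for their family after their values were seen, were tested in the same fit. Tac2 and Tac4, the other tachykinin precursors, had differences of 0.08 ± 0.12 and -0.12 ± 0.10 log2 (limma adjusted p of 0.789 and 0.533). Both were dim, at percentiles 17.1 and 30.8. Calcb, which encodes the second CGRP form, read 5.94, 5.47, 5.97 and 5.33 in GR-null 5, 17, 25 and 26, against 5.23, 5.20, 4.89 and 5.25 in wild-type 4, 6, 28 and 29. Every GR-null value was above every wild-type value, but the difference of 0.54 ± 0.16 was not past the threshold (limma adjusted p = 0.101). Ramp2 and Ramp3, which turn the Calcrl chain into receptors for adrenomedullin, differed by 0.0014 ± 0.10 (adjusted p = 0.996) and -0.65 ± 0.20 (adjusted p = 0.107).

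Of 72 other pathway genes, 69 were measured, 2 fell and 0 rose, a share of 2.90% against 2.96% of all genes. At an unadjusted p below 0.05 limma gave 11 lower and 4 higher, where 21.6% of all genes were below it. Their median difference was -0.02 log2. The genes were listed by known function, with earlier results of these data known.

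Among other neuropeptide receptors, 1 of 21 measured genes fell and 0 rose (median difference -0.01). The gene that fell was Mrgprb1, a Mas-related receptor found on mouse mast cells and a relative of the receptor that substance P activates on them. It read 4.63, 5.37, 4.46 and 4.82 log2 in GR-null 5, 17, 25 and 26, and 8.38, 8.15, 8.42 and 8.22 in wild-type 4, 6, 28 and 29. The groups were apart by more than 2 units, and wild-type values were close together. Mrgprb1 fell by 3.47 ± 0.18 (SE, n = 4 per group, 11.1-fold, limma adjusted p = 0.000189), and it kept its call with each array left out in turn. Mrgprb2, the mast cell receptor for substance P in the mouse, had no probe set listed.

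Genes of peptide processing and dense-core vesicles, the storage granules of peptide-releasing cells, had 1 fall and 0 rises among 9 measured (median -0.04). Chga, which encodes the granule protein chromogranin A, read 5.76, 5.87, 6.16 and 5.56 log2 in GR-null 5, 17, 25 and 26. In wild-type 4, 6, 28 and 29 it read 6.95, 7.04, 7.58 and 7.18. The groups did not overlap, with GR-null 25 and wild-type 28 the highest of their groups. Chga fell by 1.35 ± 0.16 (2.55-fold, limma adjusted p = 0.00756). The call held with each array left out in turn and ended with the muscle covariate, at -1.32 with adjusted p = 0.144, where adjusted p over all alternatives ranged from 0.00499 to 0.144. The difference hardly moved in that fit, which cannot tell genotype and muscle content apart. The other 8 genes, among them the prohormone convertase Pcsk1 and the granins Scg2 and Scg3, were not past the threshold, with differences of 0.14 ± 0.10, 0.23 ± 0.11 and -0.09 ± 0.08.

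In the remaining 3 groups limma called 0 genes. Of 20 other peptide genes, 3 were lower and 1 higher at an unadjusted p below 0.05, with a median difference of -0.01. The one with the smallest p, the bombesin-like peptide gene Nmb, had a difference of -0.62 ± 0.15 with groups that did not overlap (adjusted p = 0.0607). Of 9 other peptidase genes, 2 were lower and 1 higher unadjusted (median 0.08), led by the aminopeptidase Anpep at -0.28 ± 0.10 (adjusted p = 0.162). Of 10 genes for G proteins, their effectors and arrestins, 3 were lower and 0 higher unadjusted, and 9 had a negative difference (median -0.28). The one with the smallest p was the adenylyl cyclase Adcy9 at -0.46 ± 0.11 (adjusted p = 0.0592).

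**Figure D4:**
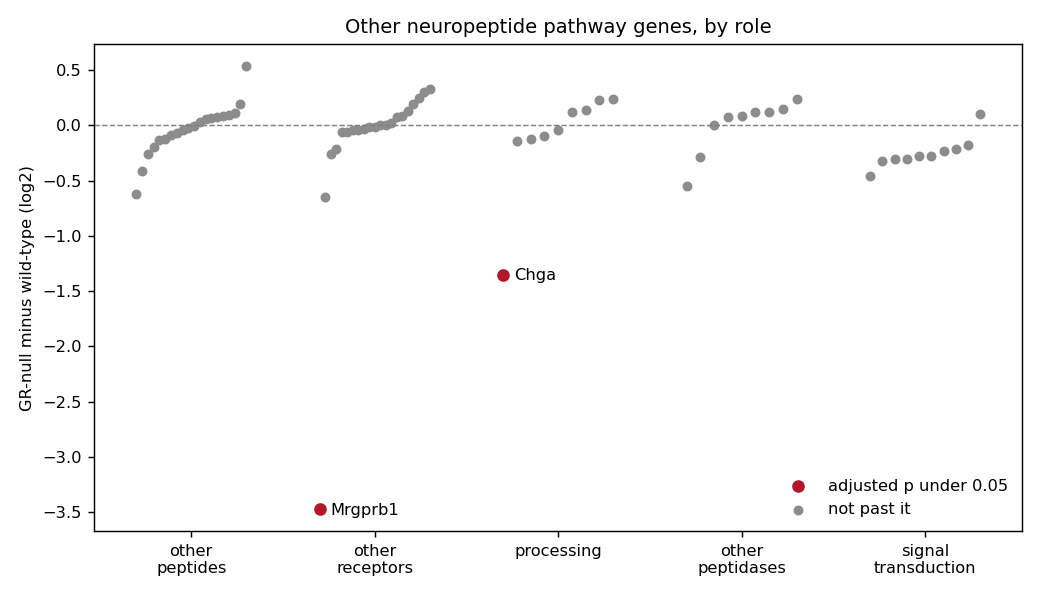
GR-null minus wild-type difference (log2, y axis) of each measured gene of the neuropeptide pathway outside the list, in 5 groups by role, sorted within each group. Mrgprb1 at -3.47 and Chga at -1.35 are past the threshold, and the other 67 are not.

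Markers of the cell types a skin sample can hold were read beside these genes. Of 18 measured sensory neuron markers, limma called 0, with 2 lower and 0 higher at an unadjusted p below 0.05. Their mean per array was 5.04 to 5.15 log2 in GR-null and 5.10 to 5.21 in wild-type skin, below the array medians. The marker with the smallest p was the homeobox gene Isl1 at -0.28 ± 0.12 (adjusted p = 0.21). Of 8 measured Schwann cell markers limma called 0, with 2 lower and 3 higher unadjusted, led by Egr2 at 0.63 ± 0.19 (adjusted p = 0.10). Their means were 7.69 to 7.78 in GR-null and 7.52 to 7.88 in wild-type skin.

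Some skeletal muscle and mast cell genes were past the threshold. Of 15 muscle genes 3 fell and 0 rose, and all 15 had a negative difference (median -0.55). Unadjusted, at a limma p below 0.05, 9 muscle genes were lower and 0 higher. Actn2, of the sarcomere's Z disc, fell by 0.75 ± 0.15 (limma adjusted p = 0.0395) and the troponin gene Tnnt1 fell by 0.67 ± 0.10 (adjusted p = 0.0167). The mean of the list was 11.41, 12.22, 11.74 and 11.66 log2 in GR-null 5, 17, 25 and 26 and 12.23, 12.36, 12.18 and 12.38 in wild-type 4, 6, 28 and 29. GR-null 17, with a muscle mean inside the wild-type range, had the lowest Tac1 and Cckar values of all arrays. That is 1 array, and the part of muscle content in the members' values was not tested. Of 9 mast cell genes 2 fell and 0 rose (median difference 0.02), Mrgprb1 and the histamine-forming enzyme Hdc, which fell by 1.41 ± 0.22 (adjusted p = 0.0167). The mast cell mean was 9.37 to 9.65 in GR-null and 9.67 to 10.03 in wild-type skin, and its part in the members' values was not tested. That mean includes Mrgprb1, already counted among the receptors, whose difference of -3.47 was the lowest of the list. The mast cell genes did not move together. Of the 9, 4 had a negative difference, and the highest difference was 1.33. At an unadjusted p below 0.05 limma gave 3 lower and 1 higher. Of 9 keratinocyte genes, Trp63 rose by 0.60 ± 0.12 (adjusted p = 0.0372) and Lor fell by 0.48 ± 0.10 (adjusted p = 0.0379). Among 8 smooth muscle and 8 fibroblast genes 0 were past the threshold by limma, with 3 and 1 lower and 1 and 2 higher unadjusted, led by Des at -0.73 ± 0.18 (adjusted p = 0.0674) and Col1a1 at -0.30 ± 0.09 (adjusted p = 0.101). With 1 array left out at a time, the Hdc call ended without wild-type 28 (-1.40) or 29 (-1.34). The Tnnt1 call ended without GR-null 25 (-0.67) or 26 (-0.66) or wild-type 29 (-0.62). The Actn2 call ended in 7 of the 8 fits, all but that without GR-null 17, with differences of -0.88 to -0.65 over the 8. Those of Trp63 and Lor ended in 6 fits each, Trp63 holding without GR-null 17 or wild-type 28 and Lor without GR-null 17 or wild-type 4. With the muscle list mean as a covariate the calls of these 5 genes all ended, with adjusted p of 0.0996 for Hdc (-1.79), 0.303 for Tnnt1 (-0.41), 0.549 for Actn2 (-0.33), 0.349 for Trp63 (0.60) and 0.287 for Lor (-0.54), where Tnnt1 and Actn2 are themselves on that list. Genotype and muscle content cannot be told apart in that fit. Without probe sets that can read several transcripts, the Lor difference was -0.24 (adjusted p = 0.239).

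The genes whose profile over the 8 arrays was most like that of Tac1 were ranked by the root mean square difference between their deviations from the 8-array mean, among 16326 genes. The closest was Ces2f, a carboxylesterase, at 0.73 log2. It read 7.03, 7.45, 7.64 and 6.31 in GR-null 5, 17, 25 and 26, and 9.82, 9.64, 10.61 and 10.13 in wild-type 4, 6, 28 and 29. The transcription factor Zbtb16 (0.82), the cytokine receptor chain Csf2rb2 (0.85), the small proline-rich protein gene Sprr2d (0.87) and the alcohol dehydrogenase Adh6b (0.87) followed. All 5 were lower in every GR-null array, with differences of -2.94, -2.55, -2.19, -3.34 and -2.12, as a match to Tac1 requires. Within the groups the likeness varied by gene. Tac1 and Adh6b were lowest in GR-null 17, while Ces2f was lowest in GR-null 26. Zbtb16 had its highest GR-null value in GR-null 17. Csf2rb2 ordered the wild-type arrays as Tac1 did, from 29 as the highest through 28 and 4 to 6. Cckar ranked 29th, at 1.13.

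**Figure D5:**
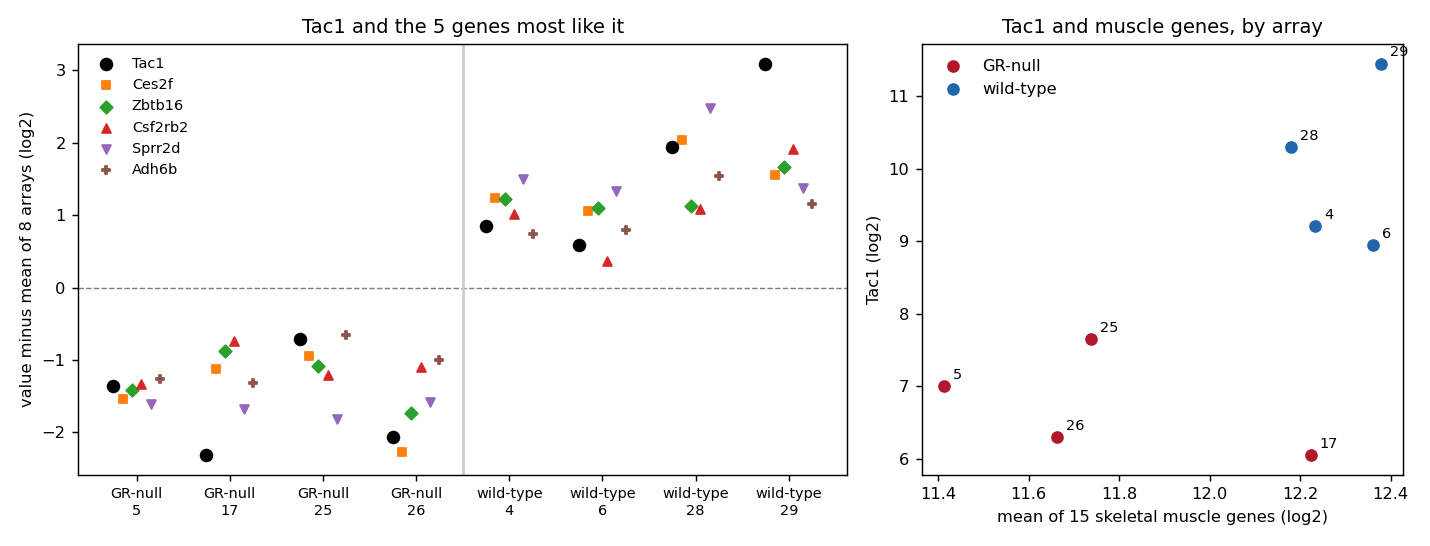
Left, values minus the 8-array mean (log2, y axis) of Tac1 and the 5 genes most like it in each array. Right, Tac1 (log2, y axis) against the mean of the 15 skeletal muscle genes (log2, x axis), 1 point per array with its label number; GR-null 17 has a muscle mean of 12.22, inside the wild-type range, and a Tac1 value of 6.05, the lowest of all. The relation of Tac1 to muscle content was not tested.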

How the data were processed

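RNA from 8 dorsal skin samples was hybridised to single-colour arrays. The deposited values are log2 expression per probe set, made by the authors with RMA (background correction, quantile normalization and summary per probe set) per the submitters' processing notes. Its version, probe set definition and filters are not known here. Values near the background are compressed by RMA, and the number of arrays limits the precision. Of 45101 probe sets, 64 controls were left out. The platform annotation gave 34945 of the 45037 tested a single symbol, 932 several and 9160 none. Of the 18193 genes, 18032 were matched to the RefSeq table of GRCm38.p6. Genotype was fitted with limma 3.58.1 in R 4.3.3 (lmFit, eBayes, two-sided), with Benjamini-Hochberg adjustment over all genes or probe sets and a threshold of 0.05. Intervals cover 95%. The fit was tested on simulated data with independent errors and no array effects, so that test says nothing of array effects in these data. The members and all lists were chosen with earlier results of these data known. Named were all members, Nr3c1, in each pathway list at most 4 genes past the threshold with the largest difference (in marker lists at most 2), otherwise the gene with the smallest p, and the 5 genes most like Tac1, passing over clone-type and sex-linked symbols. Other genes named were chosen after their values were seen. Alternatives were repeated quantile normalization, leaving out dim probe sets, a trended robust prior, array weights, a muscle or Y-linked covariate, other probe sets per gene, a threshold of 0.01 and leaving out each array.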

Additional observations from a re-analysis of the deposited data

Results flagged for a closer look

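Among 110 groups of 4 arrays checked (members, named genes and list means), 4 had 1 array far from the other 3, and chance alone gives about 1 in 20. The mean of the mast cell list was 9.65 log2 in GR-null 25, and the rest of that group lay between 9.37 and 9.42. The mean of the other neuropeptide receptors was 5.94 in wild-type 29, against 5.82 to 5.84 in the other wild-type arrays. Sprr2d, 1 of the genes most like Tac1, read 9.76 in wild-type 28 and 8.62 to 8.78 in the others. The brightest Nr3c1 probe set read 10.32 in wild-type 6 and 10.24 in the other 3. None of the 16 member probe sets was among them.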

How the results depend on the processing

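No paired analysis was possible because the labels give no litter, by which embryos could be paired, and the groups share no label number. Tac1 was chosen for its low values in GR-null skin, and its groups did not overlap at the brighter probe set. Its negative sign was therefore certain whichever array was dropped, and that sign is no evidence of stability. Tac1 was also lower under every other setting, all of which used these same arrays. Its difference lay between -3.57 and -2.74 log2 with 1 array left out, between -3.69 and -3.15 under the other settings that read the brighter probe set, and was -1.64 with the mean of its probe sets. That value follows from averaging with a probe set that did not differ. The count of members past the threshold was 2 with all arrays, 1 to 3 with 1 array left out (3 without GR-null 17, when Calcrl passed), 1 above the median level, where Cckar and all tachykinin receptors are not tested, 0 with the muscle covariate and 0 at a threshold of 0.01. The count of other pathway genes was 2, with 2 to 4 when 1 array was left out, 6 with array weights and 1 with the muscle covariate. The count of all genes was 539, and 79 to 1640 with 1 array left out, 1944 with array weights, 34 with the muscle covariate, 884 with the mean of all probe sets and 46 at a threshold of 0.01. For probe sets it was 1735, and 125 to 4866 with 1 array left out, 5831 with array weights and 7 with the muscle covariate. Among the fits without 1 array, the largest counts came without GR-null 17 and the smallest without GR-null 25. The causes were not tested. The dimness of the receptor probe sets limits what could be seen of them.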
